A study of Mus musculus with 3 samples.

Results

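Contactins and contactin-associated proteins are cell adhesion molecules of neurons, and 10 of their mouse genes were followed here through the peaks of an ATRX chromatin immunoprecipitation (ChIP-seq). The genes were listed by name, but with earlier results of these data known, and Cntn2, Cntnap1 and Cntnap3 are not among them. They are 5 contactins (Cntn1, Cntn3, Cntn4, Cntn5 and Cntn6) and 5 contactin-associated genes (Cntnap2, Cntnap4, Cntnap5a, Cntnap5b and Cntnap5c). All peaks overlapping the RefSeq GRCm38 span of each gene, widened by 5 kb on either side, were taken from the authors' peak lists. They came to 291 of 112153 peaks in the control list and 318 of 105674 in the MICAL1-FL list. The 10 spans cover 8.28 Mb, and they are 10 of 21887 protein-coding genes on the chromosomes.

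ATRX is a chromatin remodeler that places the histone variant H3.3 in repetitive DNA and is known to bind sequences that can form G-quadruplexes. The cells were primary neurons of C57BL6/J embryos, taken between E15.5 and E17.5, infected with lentivirus on day 5 of culture and collected at DIV14 (day 14 in vitro). One culture received mCherry, a fluorescent protein, and served as control; the other received MICAL1-FL, a version of MICAL1, an enzyme that oxidises actin. Both groups therefore share strain, culture medium with serum, infection and antibody, and differ in the virus. The labels name no sort of the cultures, and a peak list does not show which cell types they held. Each condition has 1 ChIP library, so no test between conditions is possible, and every interval below covers counting error only. The peak identifiers of the list labelled MICAL1-FL carry a prefix that does not name MICAL1, and the sample title was followed.

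Contactins are immunoglobulin-type proteins held on the outer face of the membrane by a lipid anchor. Contactin-associated proteins, also called Casprs, belong to the neurexin superfamily, cross the membrane and bind contactins beside them. Together they organise axon contacts, the domains around the nodes of Ranvier and synapses, and several of the genes are among the longest in the genome.

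ATRX peaks stood at the 5′ ends of a few of these genes, and all the summits within 1 kb of an end of known direction were at a 5′ end. Direction was known for 7 members, from RefSeq's table of promoters. In the control list, 4 of these 7 had a summit within 1 kb of the 5′ end, and in the MICAL1-FL list 2 of 7. The 5′ end is that of the annotated span. For Cntn3 and Cntn4 the starts in the table of promoters lie inside the gene, and no summit of either list was closer than 9282 bp to them. At the 3′ end the number was 0 of 7 in both lists. Counting either end of all 10 members, 5 had such a control summit, 2 a MICAL1-FL summit and 2 both. Among the 722 protein-coding genes of at least 250 kb, called long genes below, the shares were 48.9% for control, 45.0% for MICAL1-FL and 26.9% for both.

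The start of Cntnap2 was the one annotated member start covered in both lists. Cntnap2 (Caspr2) gathers potassium channels beside the node and is a known autism gene. Its control peak, at chr6:45059573-45060150, had a fold over background of 3.43 and a depth of 8 fragments, with the summit 349 bp before the start. Its MICAL1-FL peak, at chr6:45059568-45060501, had a fold of 3.06 and a depth of 7 fragments, with the summit 72 bp after the start. The peaks overlapped by 578 bp and their summits lay 421 bp apart. RefSeq's table gives 12 start windows for 7 members, each the 250 bases before a transcript start, and 3 of them lay under a peak. The 4 windows below are printed 5′ to 3′ on the gene's strand to show the sequence at these sites beside that of an uncovered start. CG dinucleotides are in capitals, and the sequences are RefSeq's, build GRCm38.p6. They are the Cntnap2 window (chr6:45059811-45060060, + strand, under peaks of both lists), the Cntnap5b window (chr1:99772151-99772400, + strand, under a control peak for 235 bp), an internal start of Cntn1 (chr15:92161107-92161356, + strand, under a MICAL1-FL peak for 116 bp) and a start of Cntn5 (chr9:10904727-10904976, − strand, under no peak).
Cntnap2: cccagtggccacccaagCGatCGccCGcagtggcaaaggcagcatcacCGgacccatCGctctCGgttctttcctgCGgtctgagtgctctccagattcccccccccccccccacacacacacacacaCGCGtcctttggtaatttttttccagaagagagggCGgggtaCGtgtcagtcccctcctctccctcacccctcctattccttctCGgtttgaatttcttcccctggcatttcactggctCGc
Cntnap5b: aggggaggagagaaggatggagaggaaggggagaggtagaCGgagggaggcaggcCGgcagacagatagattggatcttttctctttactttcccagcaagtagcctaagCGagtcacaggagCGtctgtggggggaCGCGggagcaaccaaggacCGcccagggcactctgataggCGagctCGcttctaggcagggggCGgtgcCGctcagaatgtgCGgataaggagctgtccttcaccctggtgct
Cntn1: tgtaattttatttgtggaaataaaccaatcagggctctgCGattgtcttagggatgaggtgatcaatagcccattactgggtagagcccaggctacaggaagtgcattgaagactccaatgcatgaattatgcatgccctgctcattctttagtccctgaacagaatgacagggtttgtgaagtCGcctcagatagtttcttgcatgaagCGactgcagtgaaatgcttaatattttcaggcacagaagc
Cntn5: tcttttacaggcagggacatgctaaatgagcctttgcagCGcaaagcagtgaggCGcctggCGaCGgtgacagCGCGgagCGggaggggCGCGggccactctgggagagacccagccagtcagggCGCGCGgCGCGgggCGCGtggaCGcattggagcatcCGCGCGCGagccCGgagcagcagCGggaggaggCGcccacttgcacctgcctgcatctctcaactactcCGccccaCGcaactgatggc

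The windows under peaks were not the richest in CG. The Cntnap2 window holds 13 CG dinucleotides at 59.6% GC, and the Cntnap5b window 12 at 60.0% GC. The internal Cntn1 window holds 3 at 43.6% GC. The Cntn5 window, with no peak over it, holds 26 at 68.4% GC, and 12.3% of all 21263 windows in the table hold as many. The median window has 10 CG dinucleotides and 55.6% GC. A G-quadruplex motif was searched on both strands as 4 runs of at least 3 G (or C) separated by gaps of 1 to 7 bases. It was found in 3 of the 12 member windows, namely the Cntnap2 window and both overlapping windows of Cntn5, and in 19.8% of all windows. In the Cntnap2 window the match lies in an unbroken run of C, so that the gaps are C as well. A match describes letters only.

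The other peaks at gene ends were in 1 list, or in both without overlap. Cntn3, a contactin with neurite outgrowth activity, had a control peak at chr6:102564125-102564381 with its summit 412 bp inside the 5′ end (fold 2.38, 8 fragments). Its MICAL1-FL peak at chr6:102564469-102564940, with the summit 108 bp inside, did not overlap it (fold 1.82, 5 fragments). At Cntn4, known from the guidance of olfactory axons, the control peak at chr6:105677206-105677647 had its summit 269 bp before the 5′ end. With a fold of 3.51 and 9 fragments it was the strongest control peak of Cntn4. The nearest MICAL1-FL summit lay 2967 bp before that end. Cntnap5b, one of 3 Caspr5 genes of the mouse, had a control peak at chr1:99772166-99772563 (fold 2.46, 6 fragments). Cntnap4, which acts at the output synapses of interneurons and dopamine neurons, had one at chr8:112569450-112570081, 156 bp from the end with the lower coordinate (fold 3.02, 9 fragments), and its direction was not known here. At Cntn5, the nearest control summit was 1215 bp before the 5′ end and the nearest MICAL1-FL summit 29944 bp inside the gene.

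**Figure D1:**
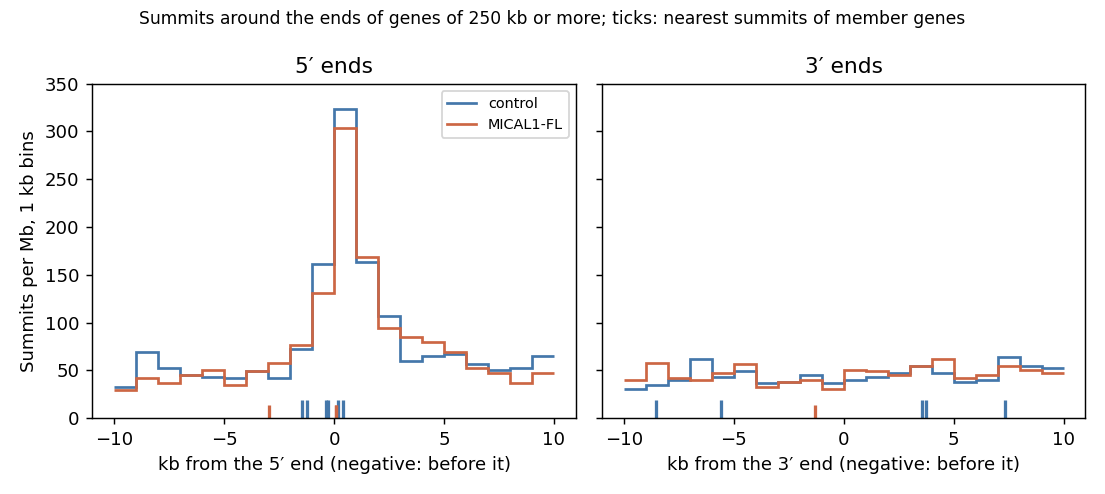
Peak summits per Mb in 1 kb bins around the 5′ and 3′ ends of the 550 long genes of known direction, by list (lines), with ticks at the nearest summits of the member genes in each list. Both lists rise at the 5′ ends, where the density within 1 kb was 4.53 and 4.76 times that at 5 to 10 kb, and neither rises at the 3′ ends (0.830 and 0.875 times).

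For these long genes of known direction, a summit lay within 1 kb of the 5′ end in 43.5% (control) and 39.8% (MICAL1-FL), and of the 3′ end in 7.64% and 7.82%. The members' ends thus followed the same order as those of other long genes, on 7 genes only.

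Taken as a whole, members carried fewer control peaks per Mb than the pooled span of protein-coding genes, and fewer peaks of either list than long genes. Over all 10 spans the control list had 35.1 peaks per Mb (95% exact Poisson interval 31.2 to 39.4), against 45.9 per Mb over all protein-coding genes and 50.3 over long genes. The MICAL1-FL list had 38.4 per Mb (34.3 to 42.9), against 42.5 over all protein-coding genes and 48.9 over long genes. Relative to all protein-coding genes, member density was 0.766 (0.681 to 0.859) for control peaks and 0.903 (0.807 to 1.01) for MICAL1-FL peaks. The control interval lies below 1 and the MICAL1-FL interval includes it, but narrowly. The latter also falls below 1 with no flanks (0.785 to 0.982), without Cntn1 (0.793 to 0.996), without Cntn5 (0.679 to 0.883), without Cntnap4 (0.770 to 0.971) and with long genes as reference (0.701 to 0.877). The median long gene stood at 48.3 (control) and 48.6 (MICAL1-FL) per Mb, and 9 members lay below it in the former list and 7 in the latter. The median protein-coding gene of any length had 32.8 and 29.4 per Mb, slightly below the members' medians of 33.9 and 32.6, so the order against all genes depends on whether spans are pooled.

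**Figure D2:**
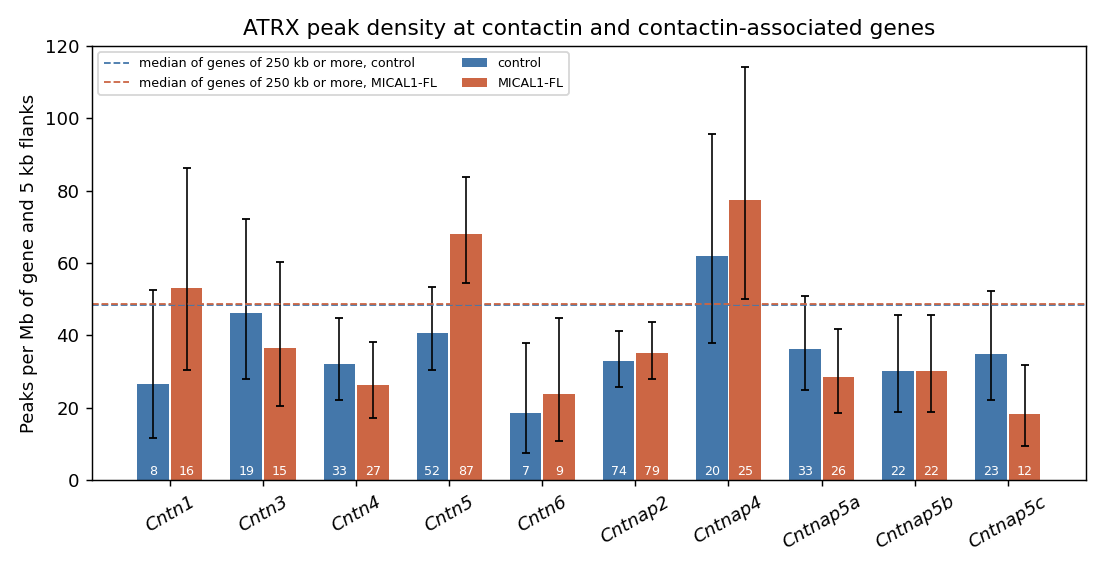
ATRX peaks per Mb in each of the 10 members, in the control and MICAL1-FL lists (bars with 95% exact Poisson intervals, counting error only; number of peaks at the foot), with dashed lines at the median long gene, which nearly coincide. Cntn6 is lowest in the control list (18.4 per Mb), Cntnap5c in the MICAL1-FL list (18.2), and Cntnap4 is highest in both (61.9 and 77.4).

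Among the contactins, the intervals of the lists were apart at Cntn5 only, where the MICAL1-FL list had more peaks, and Cntn6 was sparse in both. Cntn1, the partner of Caspr in the junctions that flank the node, had 8 control and 16 MICAL1-FL peaks, or 26.6 (11.5 to 52.4) and 53.2 (30.4 to 86.4) per Mb. Cntn3 had 19 and 15 peaks, or 46.2 and 36.5 per Mb, and Cntn4 had 33 and 27, or 32.0 and 26.1 per Mb. For these 3 genes the intervals of the lists overlap. Cntn5 (NB-2), known from the auditory pathway, had 52 control peaks and 87 MICAL1-FL peaks. Its densities were 40.6 per Mb (30.3 to 53.3) and 67.9 per Mb (54.4 to 83.8), and these intervals do not overlap. How many long genes have intervals apart in this way was not counted. By another measure, the interval of the ratio given below, 4.52% of 641 long genes lay above all genes, as Cntn5 did. Cntn6 (NB-3), found at parallel fibre synapses of the cerebellum, had 7 and 9 peaks, or 18.4 and 23.6 per Mb. In order of control density, Cntn6 was 48th from the lowest of the 722 long genes.

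Among the contactin-associated genes, the intervals of the lists overlapped at each gene. Cntnap2, at 2241 kb the longest member, had 74 control and 79 MICAL1-FL peaks, or 32.9 and 35.1 per Mb. Cntnap4 was the densest member, with 20 and 25 peaks, or 61.9 (37.8 to 95.7) and 77.4 (50.1 to 114) per Mb. The Caspr5 genes, whose roles are less well known, lay lower. Cntnap5a had 33 and 26 peaks (36.2 and 28.5 per Mb), and Cntnap5b had 22 in each list (30.2 per Mb). Cntnap5c had 23 control and 12 MICAL1-FL peaks, or 34.9 (22.1 to 52.4) and 18.2 (9.41 to 31.8) per Mb.

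The ratio of MICAL1-FL to control peaks over all members was 1.09 (95% exact conditional interval 0.929 to 1.29), while over all protein-coding genes it was 0.927 and over long genes 0.971. Without Cntn5, the other 9 members had 239 control peaks and 231 in the MICAL1-FL list, which gives 0.967 (0.803 to 1.16). Among peaks of at least 6 fragments, those 9 members had 84 and 93, which gives 1.11 (0.815 to 1.51), where all protein-coding genes gave 0.855. More peaks were in the control list at 4 members, more in the MICAL1-FL list at 5, and the numbers were equal at Cntnap5b. The contactins had 119 and 154 peaks, a ratio of 1.29 (1.01 to 1.66), and the contactin-associated genes 172 and 164, a ratio of 0.953 (0.765 to 1.19). The difference between 154 and 119 contactin peaks was as large as that between 87 and 52 at Cntn5.

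Of the 9 members with at least 20 peaks in both lists together, 2 had a ratio of at least 1.5, Cntn1 at 2.00 (0.808 to 5.40) and Cntn5 at 1.67 (1.17 to 2.41). Among the 641 long genes with as many peaks, 9.83% had such a ratio. A ratio of 1/1.5 or less was found at 1 member, Cntnap5c at 0.522 (0.237 to 1.09), against 12.0% of the long genes. The interval lay above the ratio of all protein-coding genes at Cntn5 alone, against 4.52% of long genes, and below it at 0 members, against 1.72%. A count over 9 genes moves widely with 1 gene, and nothing particular to the family is read from it. In order of the ratio, highest first, Cntn5 was 37th of the 641 long genes and Cntn1 20th. The median ratio was 1.0 over these 9 members and 0.945 over the long genes.

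**Figure D3:**
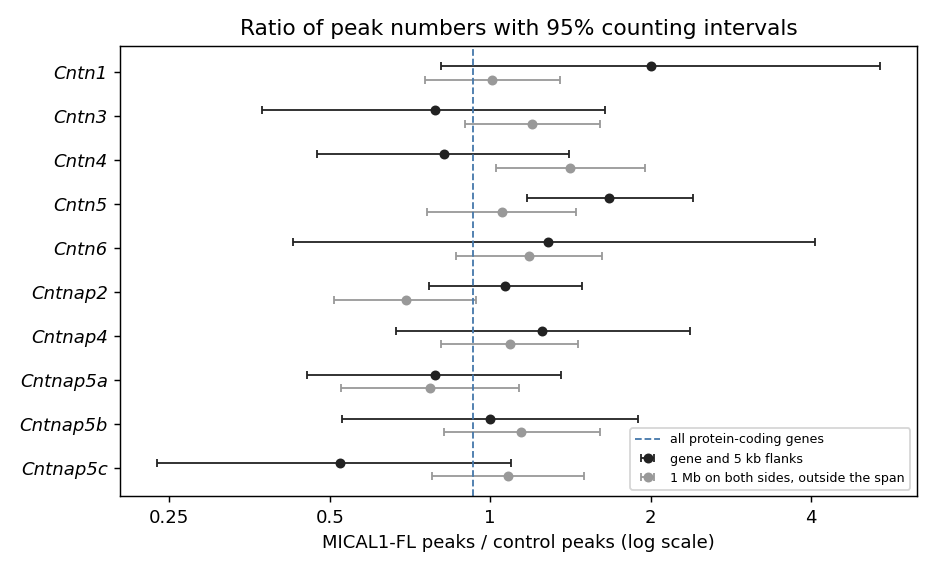
MICAL1-FL peaks divided by control peaks for each member on a log axis, inside the gene with its flanks (black) and in the 1 Mb on either side (grey), with 95% exact conditional intervals (counting error only) and a dashed line at 0.927, the value over all protein-coding genes. Cntn5 has a ratio of 1.67 inside the gene and 1.05 outside it, with intervals that overlap, and the interval of each other member includes 1 inside the gene.

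Ratios in the megabase on each side of a gene had intervals that overlapped those inside it. In the 1 Mb on each side of Cntn5 there were 78 control peaks and 82 in the MICAL1-FL list, which gives 1.05 (0.762 to 1.45). Around Cntn1 there were 98 and 99, and around Cntnap5c 75 and 81. Around Cntn4 the ratio was 1.41 (1.02 to 1.96), on 68 and 96 peaks, while inside the gene it was 0.818 (0.473 to 1.403). Around Cntnap2 it was 0.694 (0.510 to 0.941), on 108 and 75 peaks, while inside it was 1.07 (0.768 to 1.49). The difference between inside and outside was not tested.

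Within Cntn5, MICAL1-FL summits outnumbered control summits in most parts of the gene. The gene, 1271 kb long, was divided into 10 equal parts from its 5′ end. In parts 1 to 10 the control summits numbered 4, 5, 1, 4, 7, 1, 5, 11, 9 and 3. In the MICAL1-FL list they numbered 6, 9, 14, 7, 9, 6, 6, 7, 11 and 12. MICAL1-FL was higher in 9 of the 10 parts, most in part 3 (1 against 14), and the control list was higher in part 8. On the 5′ side of the midpoint the counts were 21 and 45, a ratio of 2.14 (1.25 to 3.79), and on the 3′ side 29 and 42, a ratio of 1.45 (0.881 to 2.41). The intervals of the sides overlap. The longest stretch with no control summit ran for 142 kb and held 7 MICAL1-FL summits. The longest with no MICAL1-FL summit ran for 73.7 kb and held 3 control summits. Each stretch was picked for being empty in 1 list, so the count of the other list there is no separate support. When only peaks of at least 6 fragments were counted, Cntn5 had 24 and 40, a ratio of 1.67 (0.980 to 2.89). The interval then includes 1 and still lies above 0.855, the ratio of all protein-coding genes at that depth.

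**Figure D4:**
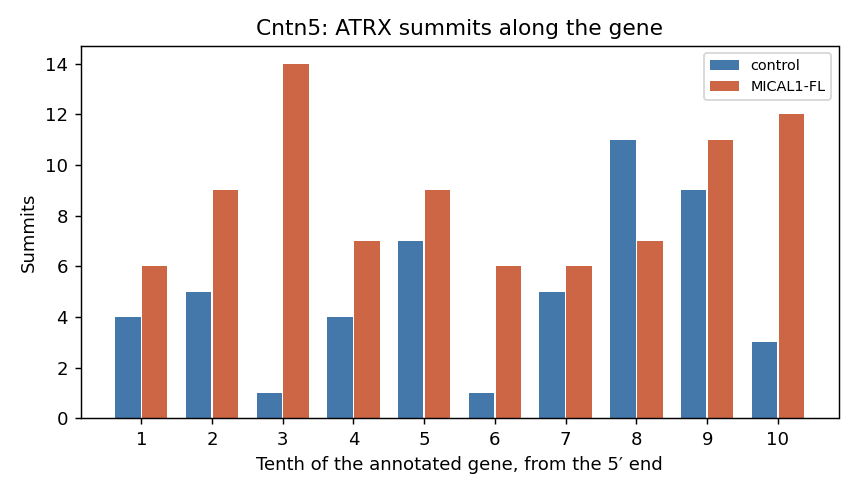
Number of ATRX summits in each of 10 equal parts of Cntn5, from the 5′ end, in the control and MICAL1-FL lists (bars, 1 library each). Part 3 holds 1 control and 14 MICAL1-FL summits, and part 8 holds 11 control and 7 MICAL1-FL summits.

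Cntn1 had few peaks, and its lists differed most near the 5′ end. The first 126 kb of the gene held no control summit and 12 MICAL1-FL summits. On the 5′ side of its midpoint the counts were 2 and 12, a ratio of 6.0 (1.34 to 55.2), and on the 3′ side 5 and 4. Of the 20 gene sides computed, only those 5′ sides of Cntn1 and Cntn5 had an interval above the ratio of all genes, and 0 lay below it; they were picked after all 20 were seen. Over both sides of all 722 long genes, 2.84% of 1444 sides lay above and 1.11% below. In Cntn3, 6 of the 19 control peaks lay in part 1, and a stretch of 159 kb that began 60.7 kb into the gene held no control summit and 4 MICAL1-FL summits. Its counts were 7 control and 9 MICAL1-FL on the 5′ side and 12 and 6 on the 3′ side. In Cntn6 a stretch of 162 kb had no control summit and 3 MICAL1-FL summits. The longest stretches with no MICAL1-FL summit were 90.3 kb in Cntn1, 74.9 kb in Cntn3 and 72.4 kb in Cntn6, with 3, 3 and 2 control summits. In Cntnap5a the last 162 kb in coordinate order held no MICAL1-FL summit and 5 control summits. Its longest stretch with no control summit, 96.9 kb, held 0 MICAL1-FL summits. All these stretches were picked for being empty in 1 list and were not compared with those of other long genes. In Cntnap2 the longest empty stretches were 146 kb (control) and 154 kb (MICAL1-FL), 6.49% and 6.87% of the gene. Over the 7 members of known direction, part 1 held 12.0% of control and 8.70% of MICAL1-FL summits, against 12.2% and 11.6% in long genes.

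**Figure D5:**
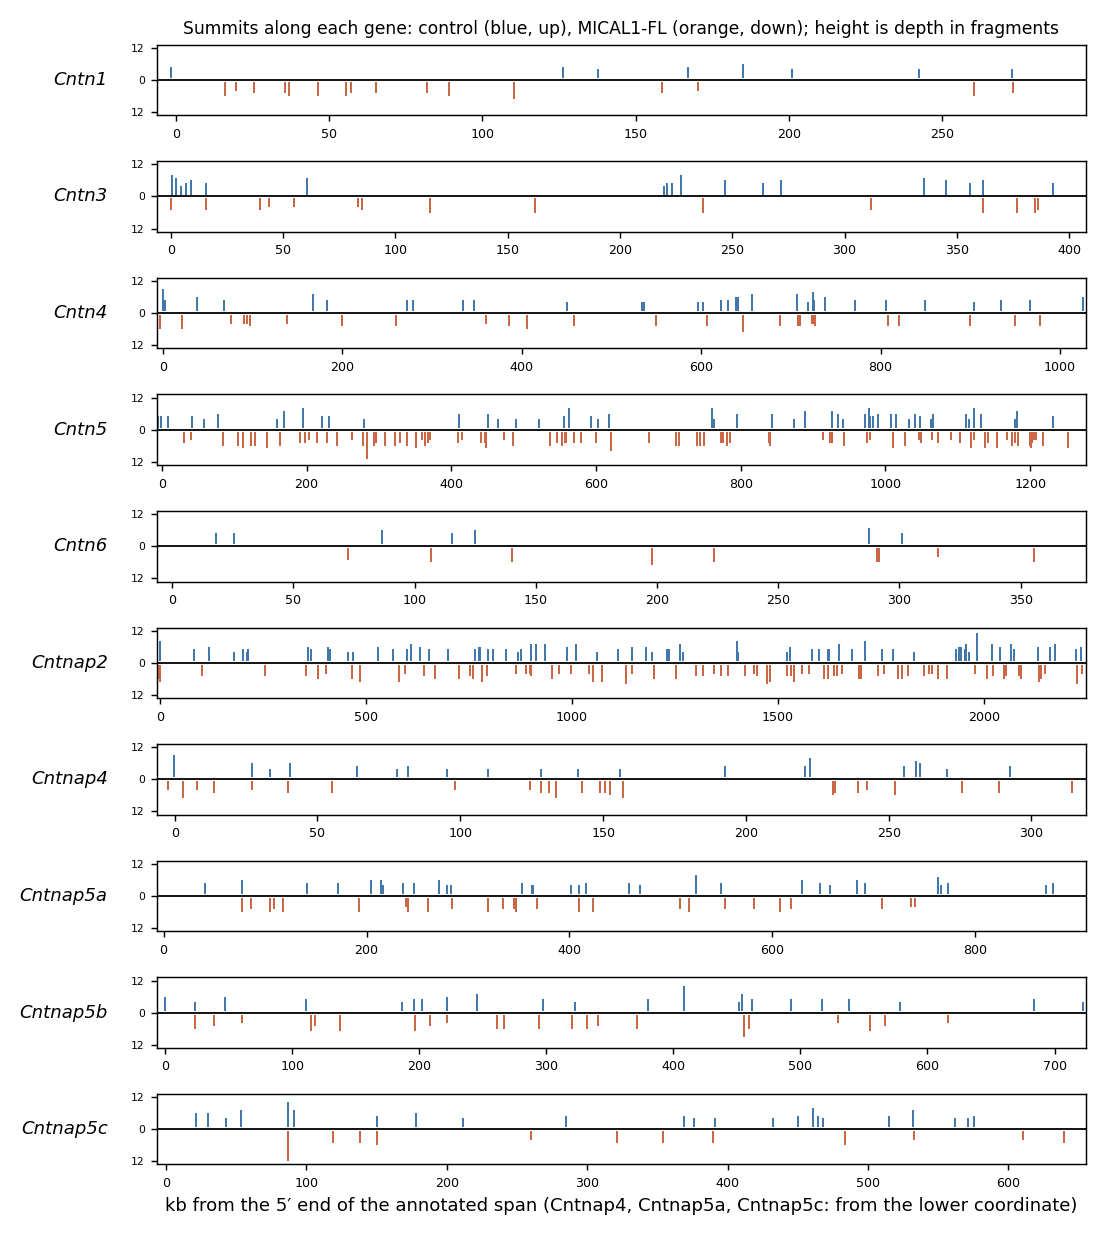
Position of every peak summit along each member, as distance from the 5′ end, or from the lower coordinate where direction was not known (Cntnap4, Cntnap5a and Cntnap5c), with control above the line, MICAL1-FL below it and height as depth in fragments. Cntn5 shows 87 MICAL1-FL against 52 control peaks, and Cntn1 shows no control summit in its first 126 kb.

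The lists rarely marked the same place, in these genes as over all protein-coding genes. A peak overlapped one of the other list by at least 1 bp at 15 of 291 control peaks (5.15%, exact binomial interval 2.91 to 8.36) and 15 of 318 MICAL1-FL peaks (4.72%, 2.66 to 7.66). Over all protein-coding genes the shares were 8.06% and 8.69%, and over long genes 7.53% and 7.75%. The control interval includes both control shares, so no difference is read from it. The MICAL1-FL interval lies below both of its shares, but without Cntn5 it was 3.68 to 10.5, which includes them. The 15 pairs were in 8 genes, with 0 at Cntn5 and 0 at Cntn6, and how many long genes hold no pair was not counted. Cntn6 had only 7 control and 9 MICAL1-FL peaks, where 0 allows shares of up to 41.0% and 33.6%. At Cntn5, 0 of 52 control peaks allows a share of up to 6.85%, and 0 of 87 MICAL1-FL peaks one of up to 4.15%, at the upper bounds of the exact intervals. Over the pooled member peaks, the median distance from a control summit to the nearest MICAL1-FL summit was 9.66 kb, against 5.82 kb over all genes. From MICAL1-FL summits to control summits it was 10.5 kb against 5.41 kb. Not every member had the longer distances. From control summits the median was 3.81 kb at Cntn5, where it was 8.89 kb from MICAL1-FL summits. At Cntnap4 the medians were 5.64 kb and 4.08 kb. At the other members both were above those of all genes. Whether the distances differ beyond what peak density gives was not tested.

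A few pairs coincided closely. In Cntn4 the control peak at chr6:106402051-106402438 and the MICAL1-FL peak at chr6:106402181-106402573 had summits 4 bp apart, with 8 and 4 fragments. In Cntn3 a pair at chr6:102202826-102203510 and chr6:102202790-102203220 had summits 5 bp apart, with 6 fragments each. In Cntnap5c, the control peak at chr17:57855963-57856225 and the MICAL1-FL peak at chr17:57855964-57856308 had summits 16 bp apart. This place had the deepest MICAL1-FL peak of any member, 12 fragments, against 10 in the control list. The folds ran the other way, 4.20 for control and 1.82 for MICAL1-FL, because the background behind them was 1.62 and 6.14 fragments. The q value was 0.0338 in the control list and 1 in the other. At this site a call at a q threshold would appear in the control list only, at a lower depth.

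Strong peaks were few, in the members and over all genes. With that Cntnap5c peak, 2 control and 1 MICAL1-FL member peaks had a q value of 0.05 or less, or 0.687% and 0.314% of the members' peaks. Over all protein-coding genes these shares were 0.411% and 0.316%. In Cntn5 the MICAL1-FL peak at chr9:10621508-10622061 had a fold of 4.59, 11 fragments and a q value of 0.00368. It lay 283 kb inside the gene, in part 3, and the nearest control summit was 3.88 kb away. In Cntnap2 the control peak at chr6:47044806-47045623 had a fold of 4.58, 11 fragments and a q value of 0.00518. It lay 1985 kb from the start, 88.6% of the way along, with the nearest MICAL1-FL summit 7.10 kb away. The q value was 1 for 273 of the 291 control peaks and 315 of the 318 MICAL1-FL peaks, against 95.4% and 96.6% over all protein-coding genes. Depth was 6 fragments or fewer at 83.5% of control and 88.7% of MICAL1-FL member peaks, with a median of 5 in both, against 82.0% and 84.6% over all protein-coding genes. The comparison therefore rests on counts of peaks per gene rather than on single peaks.

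Other genes of the pathway were counted in the same way. The 3 remaining family members are short or sparse: Cntn2 (TAG-1) had 1 control and 4 MICAL1-FL peaks, Cntnap1 (Caspr) 2 and 0, and Cntnap3 3 and 2. A list of 14 binding partners and associated genes had 226 control and 189 MICAL1-FL peaks, with more in the control list at 8, more in the MICAL1-FL list at 4 and equal numbers at 2. The interval of the ratio left out the ratio of all genes at 0 of the 14, against 4.52% above and 1.72% below among long genes with at least 20 peaks. At L1cam (3 and 0 peaks) and Kcna2 (0 and 4), no split of so few peaks could have left it out. The same holds for the 3 remaining family members, so nothing is read from their intervals. Nrcam, an adhesion partner of contactins, had 33 and 22 peaks, and Nfasc (neurofascin) had 15 and 7. Ptprg, a receptor phosphatase that binds several contactins, had 55 and 60. Tnr (tenascin-R), a matrix ligand of Cntn1, had 28 and 30, and Chl1, a partner of Cntn6, had 10 and 14. The median density of these 14 genes was 78.1 control and 60.2 MICAL1-FL peaks per Mb, against 33.9 and 32.6 for the 10 members. The sets are unlike in length, from 9.34 kb (Kcna1) to 689 kb (Ptprg) in the 14 and from 291 to 2241 kb in the members. No set matched for length was compared, and the median long gene had 48.3 and 48.6 per Mb.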

How the data were processed

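ATRX ChIP-seq peak lists of 1 control and 1 MICAL1-FL library were analysed; the input library is not analysed here. Each list holds, per peak, a score, a fold over background (a ratio), −log10 p and −log10 q, as deposited by the authors. The score was found to be the whole part of −log10 p times 10. The submitters' processing notes name MACS 1.4.2, Bowtie 1.3.0, ChIPseeker 1.26.2 and SAMtools 1.9, with no role. Not given in the sources used here are the genome build and the peak threshold. The largest p in the lists is 0.0498 (control) and 0.0496 (MICAL1-FL).

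Fragment depth and background at each summit were recovered from fold, taken as (depth + 1)/(background + 1), and from the Poisson p-value. Depth came out whole, with −log10 p matched within 0.02, for 99.95% of control and 99.96% of MICAL1-FL peaks. Peaks were assigned to RefSeq GRCm38 gene spans with 5 kb flanks. Peaks of the 2 lists were shared when they overlapped by 1 bp. Intervals are exact (Poisson, conditional binomial or Clopper-Pearson, 95%). Folds are the authors' values and were not compared between lists as changes. Python 3.11.15, numpy 2.4.6, pandas 2.3.3 and scipy 1.17.1 were used, and scripts were tested on simulated data. Peaks were picked as each gene's highest −log10 p, those with q of 0.05 or less, those nearest gene ends and the closest pair. Not all of these are named here. The members and gene lists were chosen with earlier results of these data known.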

Additional observations from a re-analysis of the deposited data

How the results depend on the processing

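No paired analysis was possible because each condition has 1 library. Of 87 values recomputed under 21 alternatives, 8 moved and 0 reversed. The other 79 stayed within the interval of the main value or, for counts of genes, within 1.5 times. For the median fold of each list, the range used was the interquartile range of the folds, which is not an interval of the median. A value could be called reversed only where the reported interval left out 1, which held for control density and the member ratio alone. Control density in the first part of the gene, relative to the whole gene, went from 1.20 with 10 parts to 0.913 with 5, and was not called reversed. Counting only peaks of at least 6 fragments, the member ratio relative to all genes was 1.44 instead of 1.18, and the control density relative to all genes 0.640. The MICAL1-FL density became 0.785 with long genes as reference and 0.776 without Cntn5. The shared MICAL1-FL percentage fell to 2.63% at −log10 p of at least 2. Allowing 1 kb between peaks gave 12.4% (control) and 11.3% (MICAL1-FL) shared. Within 3 kb of an end, 4 members had a MICAL1-FL summit instead of 2. The cause of these shifts was not tested. Leaving out each gene in turn gave ratios of 1.04 (without Cntn5) to 1.23 (without Cntnap5c). The interval of the 1.18, 1.003 to 1.39, included 1 without Cntn1, Cntn5, Cntn6, Cntnap2 or Cntnap4, with 10 kb flanks and with long genes as reference. A depth of 5 fragments at the median peak, with 1 library per condition, limits every count.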

Other observations

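The spans of these 10 genes also hold 31 other annotated genes: 17 lncRNAs, 9 pseudogenes, 3 snoRNAs, 1 miRNA and 1 protein-coding gene. No peak overlapped 17 of them, 8 had peaks of both conditions, 4 had control peaks only and 2 had MICAL1-FL peaks only. The miRNA gene Mir6237, inside Cntn5, had 0 control peaks and 1 MICAL1-FL peak. Peaks counted for a long gene can therefore also lie over a gene inside it.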
